A study of Mus musculus with 4 samples.

Results

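The genes examined here are 10 members of 3 families, the S100 proteins (*S100a6*, *S100a8*, *S100a9*, *S100a10* and *S100a11*), the annexins (*Anxa1*, *Anxa2* and *Anxa5*) and the galectins (*Lgals1* and *Lgals3*). They were chosen by name and followed through the whole tumor and tumor Treg values. All 10 had a value in every set, out of 10941 genes with a value in any set. Transcripts were assigned to mm10 genes by a shared intron or by 50% of their exon bases, and the FPKM (a fragment count divided by transcript length and by the size of the library) of a gene was summed over its transcripts of at least 300 bases.

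The data came from primary tumors that grew in Foxp3+EGFP Balb/c mice, females aged 8 weeks in which the Foxp3 promoter drives EGFP, after 4T1 cells were placed in the mammary fatpad. 4T1 cells are a mouse breast cancer line of the same strain, so whole tumor RNA includes that of the cancer cells. By the study's methods the mice received Control SMO or LFPRLR SMO for 12 days, whereas the labels word the treatment as one of the injected cells. An SMO is a splice modulating oligomer, and the LFPRLR SMO is directed at the long form of the prolactin receptor. RNA of 6 mice was combined per treatment for whole tumor. A further 6 mice per treatment gave the Tregs, sorted by EGFP, so that there were 4 libraries and 1 per group. No difference between libraries has a replicate check, and each ratio describes these libraries.

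All 4838 transcripts listed for tumor Tregs were equal for both treatment labels in position, coverage and FPKM. They are treated as 1 set of values, called the tumor Treg set, and give no comparison of treatments. Different programs made the whole tumor and Treg values, so levels and ratios set side by side across them are a description only. The label was not borne out by its markers, since 0 of 13 T cell and Treg markers had a listed transcript in that set, *Foxp3*, *Cd4*, *Il2ra* and *Cd3e* among those missing. Of 19 monocyte and macrophage markers, 18 were listed there. Read counts are not given in the sources used here, and the coverage (mean read depth over a transcript) per unit of FPKM was 1.88 in the whole tumor library of Control SMO, 1.75 in that of LFPRLR SMO and 0.947 in the tumor Treg set.

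S100 proteins are small EF-hand proteins that bind calcium and then contact target proteins. Annexins bind membranes rich in acidic phospholipids when calcium rises, and several of them carry an S100 protein as a partner. Galectins bind β-galactoside sugars on glycoproteins, both outside cells and within them. In tumors all 3 families are made by cancer cells and by infiltrating myeloid and stromal cells, and bulk RNA cannot tell a change in the number of such cells from a change in RNA per cell.

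Between the whole tumor libraries the 10 genes had log2 ratios from -0.95 for *S100a11* to 0.56 for *S100a9*. None of the 10 was higher by a factor of 2 with LFPRLR SMO and none was lower, against 18.4% higher and 16.6% lower of the 10433 genes that reached an FPKM of 1 in either library. All 10 members had an FPKM of at least 10 in both libraries, and among the 1592 genes at that level 3.64% were higher and 8.54% lower by a factor of 2. At a factor of 1.5, 0 members were higher and 3 were lower (*S100a6*, *S100a11* and *Lgals3*), against 26.8% and 26.3% of all tested genes. *S100a9*, *Lgals1* and *S100a10* had ratios above 0 on the log2 scale and 7 members had ratios below 0. Ratios below 0 were held by 53.6% of all tested genes and by 66.1% of the genes at 10 or more in both. The median log2 ratio was -0.31 for the members, -0.08 for all tested genes and -0.20 for the genes at 10 or more in both. The summed FPKM of the 10 genes was 1523 with Control SMO and 1488 with LFPRLR SMO.

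**Figure D1:**
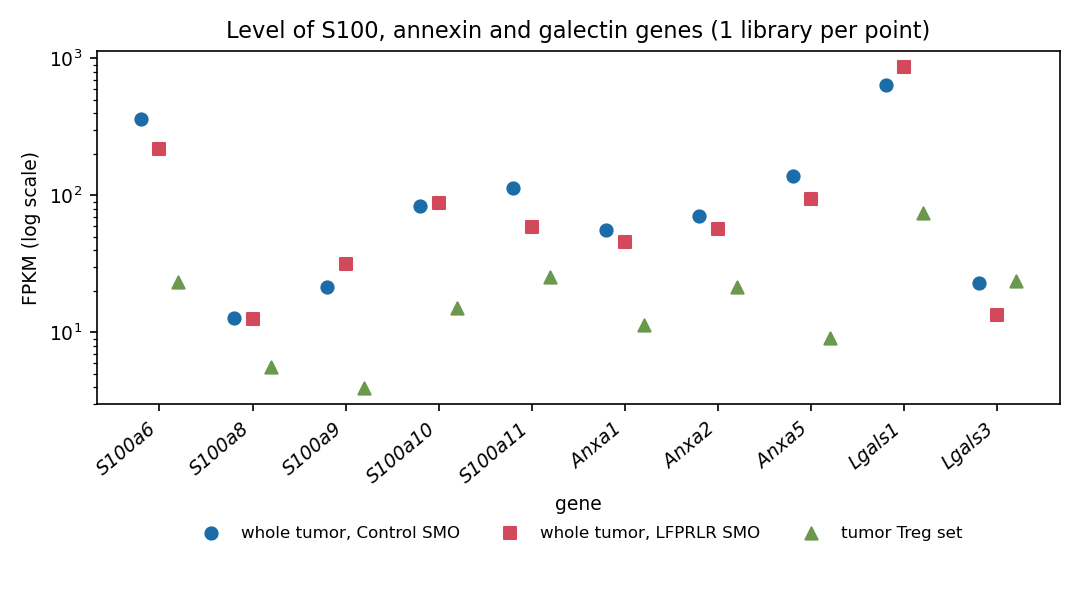
FPKM on a log axis for each of the 10 genes (horizontal axis) in the whole tumor library with Control SMO (circles), the whole tumor library with LFPRLR SMO (squares) and the tumor Treg set (triangles), 1 library per point. *Lgals1* is the highest in each set, at 639, 869 and 74.6, while *Lgals3* is the gene whose triangle, at 23.8, lies above both whole tumor points.

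**Figure D2:**
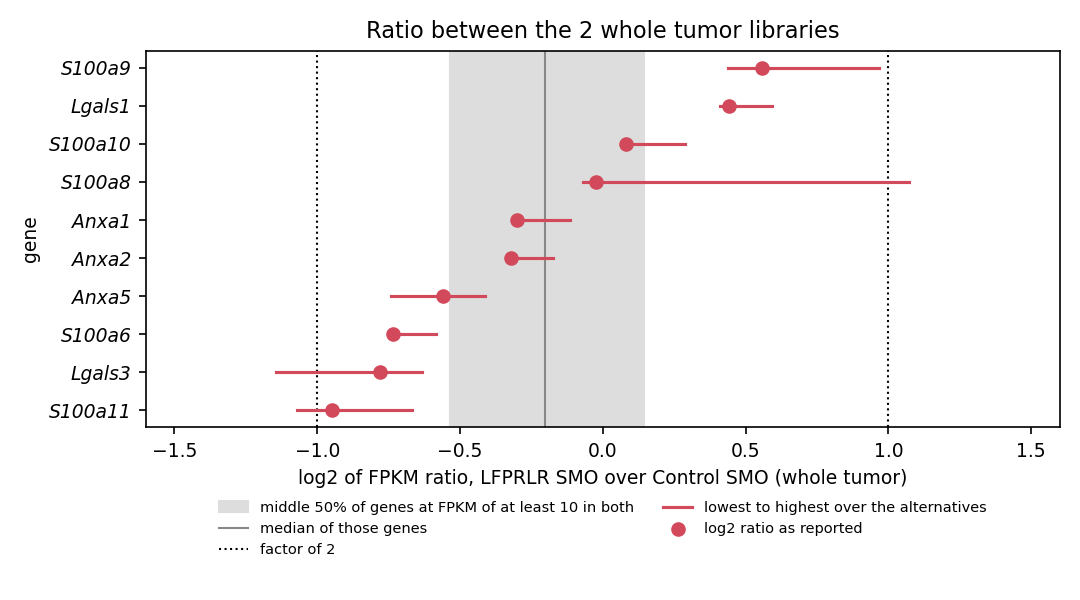
Log2 ratio of FPKM with LFPRLR SMO over Control SMO in whole tumor (horizontal axis) for each gene, with a line from the lowest to the highest value over 14 alternative ways of processing. The shaded band from -0.54 to 0.14 holds the middle 50% of genes at an FPKM of at least 10 in both libraries, and *S100a8* has the widest line, from -0.07 to 1.07.

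*S100a8* and *S100a9* encode the subunits of calprotectin, an alarmin released by neutrophils and monocytes. They lie close together on mouse chromosome 3, *S100a8* at chr3:90668978-90670035 on the plus strand and *S100a9* at chr3:90692632-90695721 on the minus strand (GRCm38). For each gene the 250 bases before the RefSeq start site are shown 5′ to 3′ on the strand of the gene, *S100a8* at chr3:90668821-90669070 and *S100a9* at chr3:90695722-90695971, because the pair encodes 1 complex and was not alike in the whole tumor values. The capitals mark matches on either strand to the letters TATAAA of the TATA box, CCAAT of the box bound by NF-Y, GGGCGG of GC boxes bound by Sp1, TGANTCA of sites bound by AP-1, or TTNNGNAA of sites bound by C/EBP proteins.
S100a8: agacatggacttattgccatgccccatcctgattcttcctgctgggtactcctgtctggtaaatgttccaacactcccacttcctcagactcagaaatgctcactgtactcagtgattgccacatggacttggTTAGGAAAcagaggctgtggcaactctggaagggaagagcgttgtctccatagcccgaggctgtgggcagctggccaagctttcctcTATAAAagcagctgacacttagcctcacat
S100a9: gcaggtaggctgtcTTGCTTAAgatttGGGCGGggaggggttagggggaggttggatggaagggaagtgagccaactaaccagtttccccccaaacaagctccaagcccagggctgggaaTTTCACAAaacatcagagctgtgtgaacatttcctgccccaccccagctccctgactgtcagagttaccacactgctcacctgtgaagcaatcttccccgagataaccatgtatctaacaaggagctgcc
The *S100a8* window held TATAAA with its first base 30 bases before the start, and TTNNGNAA at 117. The *S100a9* window had TTNNGNAA at 236 and 130 bases before the start, and GGGCGG at 223, and no match overlapped another. Of 32851 RefSeq windows of this length, TTNNGNAA was in 36.8%, TATAAA in 12.4% and GGGCGG in 32.7%. A match describes the letters and is not a site or a cause.

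*S100a8* had an FPKM of 12.7 with Control SMO, 12.4 with LFPRLR SMO and 5.59 in the tumor Treg set. The whole tumor values were nearly equal, with a log2 ratio of -0.02, but the sign was not stable. The deposited FPKM with Control SMO lay above its own 95% bounds of 3.09 to 8.65, whereas that with LFPRLR SMO lay inside its bounds of 7.11 to 17.8. Taking the midpoints of the bounds, 5.87 and 12.4, gave a log2 ratio of 1.07, past a factor of 2. *S100a9* had 21.4 with Control SMO, from transcripts at 16.1 and 5.31 that differed in the first exon and in a splice site of the second, 31.6 with LFPRLR SMO from 1 transcript, and 3.90 in the tumor Treg set. It was the member with the highest log2 ratio, 0.56, and every *S100a9* transcript lay inside its bounds. The ratio of *S100a8* to *S100a9* was 0.591 with Control SMO, 0.394 with LFPRLR SMO and 1.43 in the tumor Treg set, so *S100a8* was the lower of the pair in whole tumor and the higher in the Treg set. With the midpoints in place of FPKM, *S100a8* stayed the lower of the pair in both whole tumor libraries, but the ratio was 0.271 with Control SMO, below the 0.394 with LFPRLR SMO, so its direction between treatments was not stable.

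Neutrophil markers were set beside *S100a9*, and the direction of their sum depended on the measure. Of 16 markers, 4 were listed with Control SMO, 5 with LFPRLR SMO and 5 in the tumor Treg set, with summed FPKM of 83.6, 101 and 115. The exon-weighted value multiplies the FPKM of every overlapping transcript by the share of the gene's longest annotated transcript that it covers. It gave whole tumor sums of 48.4 for Control SMO and 44.0 for LFPRLR SMO. Over all 8831 genes tested by that value, the median log2 ratio was -0.16, so most of them were below 0. Their share below 0 was not counted, so counts below 0 by this value stand without it. Of those genes, 5.66% were higher and 8.03% lower by a factor of 2. *Mmp9*, a gelatinase of granules, had 33.2, 55.8 and 100.6, and *Csf3r*, the G-CSF receptor, had 1.09 and 8.02 in whole tumor and no listed transcript in the Treg set. The exon-weighted log2 ratios were 0.16 for *Mmp9* and 0.75 for *Csf3r*, against 0.75 and 2.77 by summed FPKM. By summed FPKM 5 markers were tested, 2 were higher and 0 lower by a factor of 2, and the median was 0.75. By the exon-weighted value 5 were tested, 1 was higher and 0 lower, and the median was 0.16. In each measure 1 of the 5 was below 0. *Lcn2*, an iron-siderophore binding protein also made by epithelium, went the other way, from 47.7 to 33.1. *Ly6g*, *Mpo*, *Elane*, *Camp*, *Ngp*, *Ltf*, *Retnlg*, *Hdc* and *Stfa2l1* had no listed transcript in any set. Their part in the *S100a9* difference was not tested.

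Of 11 genes for receptors and signaling downstream of calprotectin, 8 were tested and 0 passed a factor of 2 either way, with 5 below 0 and a median log2 ratio of -0.33. By the exon-weighted value 7 of 8 were below 0, with a median of -0.37 beside -0.16 over all genes tested by that value. By that value 1 was lower by a factor of 2, the adaptor *Traf6* at -1.29, named after its values were seen. By summed FPKM *Traf6* had 2.87 and 2.10, a log2 ratio of -0.43, and the most abundant transcript alone reversed its sign, to 0.26. *Bsg*, basigin, a receptor for *S100a9* protein, had 55.9 with Control SMO and 31.8 with LFPRLR SMO. *Rela* and *Nfkb1*, subunits of NF-κB, went from 12.5 to 9.38 and from 10.7 to 20.0, and the exon-weighted value put *Nfkb1* at a log2 ratio of -0.02. *Ager*, the receptor RAGE, *Cd36* and *Ly96* had no listed transcript in any set.

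*S100a10* encodes p11, the partner that joins annexin A2 in a tetramer at the plasma membrane and binds plasminogen there. *S100a10* lies at chr3:93555080-93564643 on the plus strand and *Anxa2* at chr9:69453620-69491795 on the plus strand. *S100a10* had 83.3 with Control SMO, 88.1 with LFPRLR SMO and 14.9 in the tumor Treg set, with a log2 ratio of 0.08 between the whole tumor libraries. Its FPKM lay above its own bounds in both, 44.2 to 57.5 and 51.6 to 65.6, and the midpoints gave 0.20. *Anxa2* had 70.8, 56.6 and 21.5, with a log2 ratio of -0.32. The bounds of *Anxa2*, 65.7 to 76.0 and 52.2 to 61.1, held the FPKM in each library and did not overlap. Such bounds describe the estimate within a library and say nothing about the spread between mice. Of 189 genes at an FPKM of at least 10 that also had 1 transcript inside its bounds in each library, 36.5% had bounds that were apart and lower with LFPRLR SMO and 3.7% apart and higher.

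The balance within the pair differed between sets. The ratio of *S100a10* to *Anxa2* was 1.18 with Control SMO, 1.56 with LFPRLR SMO and 0.695 in the tumor Treg set. *S100a10* was therefore the higher of the pair in whole tumor and the lower in the Treg set. The order in whole tumor rests on the deposited FPKM of *S100a10*, since by the midpoints of the bounds it was at 50.8 against 70.9 for *Anxa2* in the Control SMO library, and at 58.6 against 56.6 in the LFPRLR SMO library. The exon-weighted ratio was 1.55 and 2.35.

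Among 10 genes of plasminogen activation and partners of annexin A2 and p11, 8 were tested, 1 was higher by a factor of 2 and 0 lower, and the median log2 ratio was -0.21. The gene past the factor was *Plaur*, the urokinase receptor, at 7.05 under Control SMO and 15.3 under LFPRLR SMO, but its exon-weighted log2 ratio was -0.26 and 0 of 8 passed the factor by that value. *Ahnak*, a giant scaffold protein that binds the tetramer, had 59.7 and 79.8, and *Ctsb*, cathepsin B, had 50.9 and 42.6. *Ahnak* changed sign with the exon-weighted value, to -0.07. *Plg* and *Tmprss2* had no listed transcript in any set.

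*S100a6*, calcyclin, and *S100a11*, calgizzarin, are broadly made S100 proteins that bind annexins, annexin A1 among the partners of S100A11. *S100a6* at chr3:90612882-90624181 and *S100a11* at chr3:93520488-93526287 are both on the plus strand. *S100a6* had 364 with Control SMO, 219 with LFPRLR SMO and 23.5 in the tumor Treg set. *S100a11* had 114, 59.0 and 25.4. Both were lower with LFPRLR SMO, with log2 ratios of -0.73 and -0.95, the latter the lowest of the 10 members. In both libraries the FPKM of each gene lay above its own bounds, and the midpoints gave -0.63 for *S100a6* and -0.67 for *S100a11*. The exon-weighted value put *S100a11* at -1.07, past a factor of 2. The transcripts of *S100a6* had 392 and 393 bases, and those of *S100a11* had 509 and 603. Among spliced transcripts of 300 to 500 bases the FPKM lay above its bounds for 54.5% with Control SMO and 44.8% with LFPRLR SMO. At 500 to 700 bases the shares were 17.8% and 9.31%, and at 1000 bases or more 1.12% and 0.532%.

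The ratio of *S100a6* to *S100a11* was 3.20 with Control SMO, 3.71 with LFPRLR SMO and 0.926 in the tumor Treg set. By the midpoints of the bounds it was 2.40 and 2.47 in whole tumor, and by the exon-weighted value 1.89 and 2.41. *S100a6* was thus above *S100a11* in whole tumor by each measure, whereas the levels were close in the Treg set. *S100a4*, metastasin, another S100 gene on the same chromosome, had 52.0 with Control SMO, 93.3 with LFPRLR SMO and 5.09 in the Treg set. Its log2 ratio of 0.84 was opposite in sign to that of *S100a6*, and the ratio of *S100a4* to *S100a6* was 0.143, 0.426 and 0.217. In whole tumor that ratio was 0.229 and 0.521 by the midpoints and 0.252 and 0.785 by the exon-weighted value, higher with LFPRLR SMO each time, while the place of Control SMO against the Treg set depended on the measure.

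The assembled *S100a11* transcripts had 3 exons with both introns annotated in every set, and differed at their start. The first exon began 85 bases before the RefSeq start site with Control SMO and 215 bases before it with LFPRLR SMO, and at that site in the tumor Treg set. The 250 bases before the start, chr3:93520246-93520495 on the plus strand, are shown with those of *Lgals3*, chr14:47373610-47373859 on the plus strand, as these were the members with the lowest ratios and with assembled first exons that reached into the window. Capitals mark the same motifs as above.
S100a11: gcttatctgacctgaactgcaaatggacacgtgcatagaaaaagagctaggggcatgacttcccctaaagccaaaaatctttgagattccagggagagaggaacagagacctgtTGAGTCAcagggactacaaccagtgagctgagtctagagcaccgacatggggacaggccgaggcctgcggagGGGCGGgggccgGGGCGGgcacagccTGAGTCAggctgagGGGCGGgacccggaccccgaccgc
Lgals3: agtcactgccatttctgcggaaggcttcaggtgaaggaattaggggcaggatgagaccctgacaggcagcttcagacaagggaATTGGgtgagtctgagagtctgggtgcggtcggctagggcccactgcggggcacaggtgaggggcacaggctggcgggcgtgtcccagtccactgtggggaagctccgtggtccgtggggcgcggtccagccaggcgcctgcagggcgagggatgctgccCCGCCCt
The *S100a11* window held TGANTCA at 136 and 38 bases before the start, letters that read the same on both strands and were in 6.75% of all windows, and GGGCGG at 64, 52 and 24. The *Lgals3* window held CCAAT on the opposite strand at 167, a motif in 33.8% of windows, and GGGCGG on the opposite strand at 7. No match overlapped another. The *Anxa2* window had TGANTCA at 95 bases and TATAAA at 17 bases before its start, and that of *Anxa1* had TATAAA at 32 bases. The promoter table has no entry for *S100a10* and *Lgals1*.

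**Figure D3:**
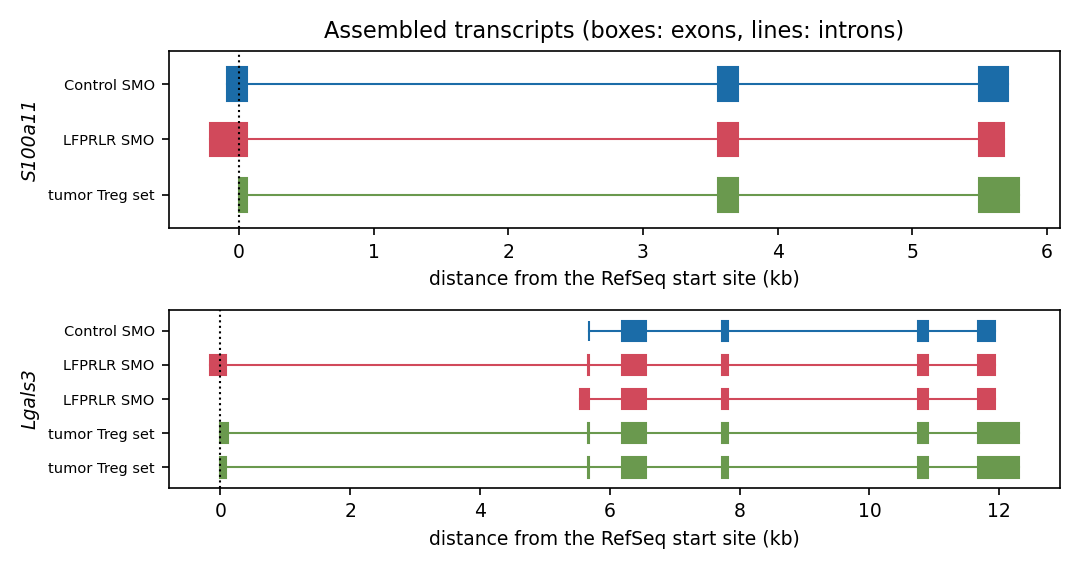
Assembled transcripts of *S100a11* (top) and *Lgals3* (bottom) by distance in kb from the RefSeq start site, with exons as boxes and introns as lines, for whole tumor with Control SMO, whole tumor with LFPRLR SMO and the tumor Treg set. The *Lgals3* transcript with Control SMO starts 5675 bases after that site, at chr14:47379535. With LFPRLR SMO the less abundant transcript, at an FPKM of 3.02, starts 161 bases before the site. The more abundant one, at 10.4, starts at chr14:47379404, close to the start with Control SMO.

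Partners of S100A6 and S100A4 proteins leaned upward in summed FPKM. Of 8 genes, all tested, 1 was higher by a factor of 2 and 0 lower, 2 had ratios below 0, and the median log2 ratio was 0.41. By the exon-weighted value the lean was not seen, with 6 of 8 below 0. The median was -0.17, beside -0.16 over all genes tested by that value. *Myh9*, non-muscle myosin heavy chain and a target of S100A4, had 31.4 under Control SMO and 66.6 under LFPRLR SMO. The tropomyosin genes *Tpm3*, *Tpm4* and *Tpm1*, whose proteins wrap actin filaments, had 58.6 and 77.6, 54.0 and 66.2, and 37.0 and 68.5. The exon-weighted log2 ratios were 0.08 for *Myh9*, -0.73 for *Tpm3*, -0.91 for *Tpm4* and 0.37 for *Tpm1*.

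The annexin members were lower with LFPRLR SMO in each case, though not all by more than the general shift. The exon-weighted log2 ratios were -0.12 for *Anxa1*, -0.31 for *Anxa2* and -0.41 for *Anxa5*. The median over all genes tested by that value was -0.16. *Anxa1*, whose protein acts on formyl peptide receptors to limit leukocyte entry, lies at chr19:20373428-20390944 on the minus strand. It had 56.3 with Control SMO, 45.8 with LFPRLR SMO and 11.3 in the tumor Treg set. The log2 ratio was -0.30, and the bounds of 51.9 to 60.9 and 42.1 to 49.5 held the FPKM and did not overlap. Whole tumor had 1 *Anxa1* transcript of 13 exons per library with all 12 introns annotated. The Treg set split its level between the RefSeq transcript at 3.40 and a transcript of 14 exons at 7.90, in which 11 of 13 introns were annotated and 51 bases lay outside annotated exons.

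*Anxa5*, at chr3:36448923-36475894 on the minus strand, encodes the phosphatidylserine-binding protein used to label dying cells. It had 138 with Control SMO, 93.5 with LFPRLR SMO and 9.08 in the tumor Treg set, with a log2 ratio of -0.56. With LFPRLR SMO the FPKM lay above its bounds of 77.4 to 87.7, and the midpoints gave -0.74. The ratio of *Anxa5* to *Anxa2* was 1.95, 1.65 and 0.422, so *Anxa5* exceeded *Anxa2* in whole tumor and was below it in the Treg set. The ratio of *Anxa1* to *Anxa2* was 0.796 and 0.808 in the whole tumor libraries and 0.526 in the Treg set. By the exon-weighted value *Anxa5* over *Anxa2* was 2.81 and 2.62 in whole tumor, and *Anxa1* over *Anxa2* was 1.11 and 1.27, which puts *Anxa1* above *Anxa2*.

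Beyond these members, the annexin family had 12 genes on the list, of which 9 were tested and 0 passed a factor of 2 either way. Ratios were below 0 for 8 of 9, with a median log2 ratio of -0.47, and for 6 of 9 by the exon-weighted value, with a median of -0.28. *Anxa3* had 64.5 with Control SMO and 37.1 with LFPRLR SMO, *Anxa7* had 13.9 and 8.80, and both changed sign with the exon-weighted value, to 0.10 and 0.07. *Anxa6*, which binds cholesterol-rich membranes, had 17.6 and 12.4, *Anxa4* had 12.2 and 8.79, and *Anxa11* had 6.13 and 4.61. In the tumor Treg set *Anxa4* was at 11.4, close to *Anxa1*. *Anxa9*, *Anxa10* and *Anxa13* had no listed transcript in any set.

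**Figure D4:**
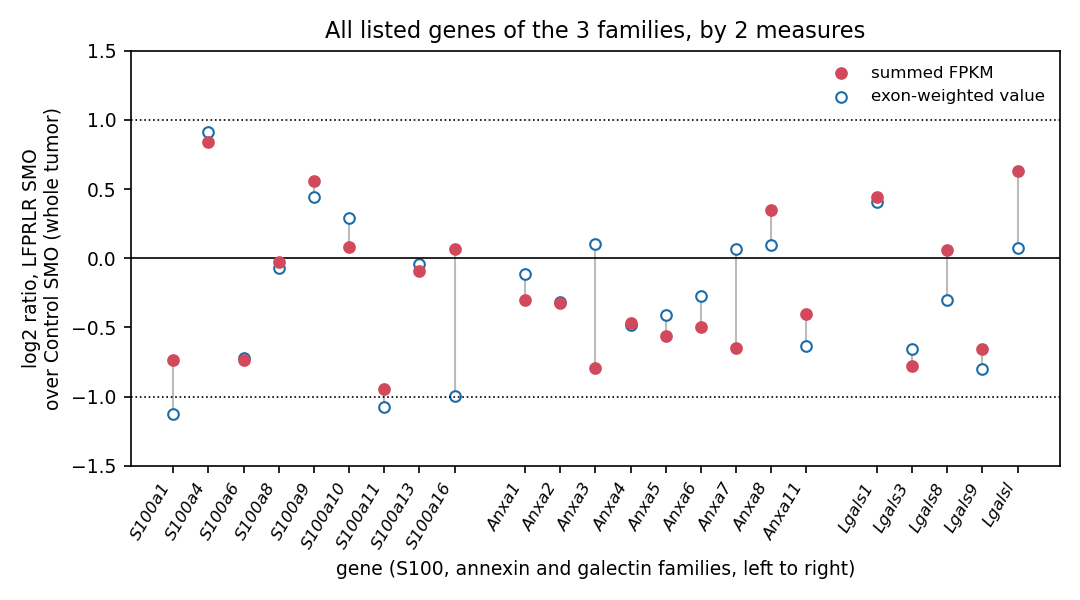
Log2 ratio with LFPRLR SMO over Control SMO in whole tumor for the 23 tested genes of the S100, annexin and galectin families (horizontal axis), by summed FPKM (filled points) and by the exon-weighted value (open points), with dotted lines at a factor of 2. Of 9 annexins, 8 lie below 0 by summed FPKM and 6 by the exon-weighted value, and *Anxa3* and *Anxa7* cross 0 between the measures.

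The S100 family had 17 genes on the list, of which 9 were tested, 0 passed a factor of 2 and 5 were below 0, with a median of -0.02. Exon-weighted, 6 of 9 were below 0 and 2 were lower by a factor of 2, *S100a1* and *S100a11*, with a median of -0.07. *S100a1* had 11.6 under Control SMO and 6.94 under LFPRLR SMO, and *S100a13* had 15.9 and 14.9. The log2 ratio of *S100a1* was -0.73, or -1.12 by the exon-weighted value, and that of *S100a13* was -0.09. Of the other S100 genes on the list, *S100a16* had a listed transcript in whole tumor, and 8 had none in any set, *S100b* and *S100a14* among them.

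Genes of the processes in which annexins A1 and A5 act had levels that mostly lay within a factor of 2. Of 8 genes linked to annexin A1 and its formyl peptide receptors, 3 were tested and 0 passed the factor, and *Fpr1* and *Fpr3* had no listed transcript in any set, while *Fpr2* was listed in the Treg set at 0.060. None passed by the exon-weighted value either, with a median of 0.03. The 3 tested were *Nr3c1*, the glucocorticoid receptor, at 6.47 and 9.39, *Pla2g4a*, a cytosolic phospholipase A2, at 4.97 and 5.47, and *Tsc22d3*, GILZ, at 4.07 and 3.13. Of 12 genes for phosphatidylserine exposure and clearance, 7 were tested, with 0 higher, 1 lower and a median log2 ratio of -0.48. *Axl*, a receptor that takes up dying cells, had 38.9 and 26.3, *Ano6*, a scramblase, had 13.9 and 25.9, and *Stab1*, a scavenger receptor, had 12.8 and 9.12. The exon-weighted log2 ratio of *Ano6* was 0.03, against 0.90 by summed FPKM. The gene past the factor was *Mertk*, at 3.39 and 1.37, named after its values were seen. By the exon-weighted value 6 genes were tested and 0 passed. *Mertk* was not among those 6, since its exon-weighted values of 0.97 and 0.31 fell below the filter of 1. Their log2 ratio was -1.39. Of 12 genes for calcium-dependent membrane repair, 10 were tested, with 0 higher, 1 lower and a median of -0.20. *Myof*, myoferlin, had 43.8 and 30.6, *Chmp4b*, an ESCRT-III subunit, had 24.9 and 23.1, and *Capns1*, the small calpain subunit, had 22.7 and 12.3. The gene past the factor was *Smpd1*, at 4.47 and 1.62, also named after its values were seen, and by the exon-weighted value its log2 ratio was -0.24.

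*Lgals1* and *Lgals3* encode galectin-1, which binds glycans as a dimer and can drive activated T cells to die, and galectin-3, which forms lattices on branched N-glycans. They lie at chr15:78926725-78930465 and chr14:47367751-47386160, each on the plus strand. *Lgals1* had 639 with Control SMO, 869 with LFPRLR SMO and 74.6 in the tumor Treg set, and it ranked 9 of 9570 genes, 6 of 9678 and 25 of 3078. Its log2 ratio was 0.44, and the bounds of 603 to 675 and 818 to 923 held the FPKM and did not overlap, with the bounds with LFPRLR SMO the higher. *Lgals1* held 42.0% of the summed FPKM of the 10 members with Control SMO, 58.4% with LFPRLR SMO and 34.9% in the Treg set. The near constancy of the members' sum in whole tumor thus covers a higher *Lgals1* and lower values of *S100a6*, *S100a11* and *Anxa5*.

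*Lgals3* had 23.0 with Control SMO, 13.4 with LFPRLR SMO and 23.8 in the tumor Treg set. Its log2 ratio was -0.78 in whole tumor, the opposite sign to *Lgals1*. The FPKM with Control SMO came from 1 transcript with 5 exons whose bounds were 19.6 to 26.5. That with LFPRLR SMO came from a transcript of 5 exons at 10.4, with bounds of 8.05 to 12.7, and a transcript of 6 exons at 3.02, with bounds of 1.70 to 4.38. Counting the most abundant transcript alone gave -1.14, past a factor of 2. The 6-exon transcript was the one that reached past the RefSeq start site. In the Treg set both *Lgals3* transcripts matched RefSeq and had 6 exons, with FPKM of 15.1 and 8.65.

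The ratio of *Lgals3* to *Lgals1* was 0.0361 with Control SMO, 0.0154 with LFPRLR SMO and 0.319 in the tumor Treg set. Galectin-3 RNA was thus a small part of galectin-1 RNA in whole tumor and a larger part in the Treg set. Monocyte and macrophage markers were listed alongside, 18 of 19 with Control SMO, 17 with LFPRLR SMO and 18 in the Treg set, with summed FPKM of 693, 461 and 534. Of the 18 tested in whole tumor, 0 were higher and 3 lower by a factor of 2, 15 were below 0, and the median log2 ratio was -0.55. Exon-weighted, 15 of 17 were below 0 and 1 was lower by a factor of 2, with a median of -0.60. The median over all genes tested by that value was -0.16. *Lyz2*, lysozyme, had 110 and 76.1 in whole tumor, and *Csf1r*, the receptor of macrophage growth factor, had 12.4 and 7.85. By summed FPKM *Cd14*, *Fcgr3* and *Itgam* went the other way, with log2 ratios of 0.43, 0.12 and 0.06. Those markers were below 0 by the exon-weighted value, whereas *Ccr2* and *Tyrobp* were above 0 by it, at 0.98 and 0.53. *Ly6c2* had no listed transcript in any set. The part of these cells in the lower values of *Lgals3*, *S100a11*, *S100a6* and the annexins was not tested. Epithelial markers, which 4T1 cells carry, summed to 322 and 326 in whole tumor and 22.0 in the Treg set, with 13, 13 and 7 of 13 listed, and fibroblast markers to 913, 909 and 24.2, with 10, 10 and 3 of 11 listed. By the exon-weighted value epithelial markers summed to 276 and 248 in whole tumor, with 7 of 12 tested below 0, and fibroblast markers to 224 and 259, with 2 of 10 below 0.

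Of the other galectins, *Lgals9*, which binds TIM-3, had 12.5 with Control SMO, 7.90 with LFPRLR SMO and 5.59 in the Treg set, and *Lgalsl*, a galectin-like gene, had 4.02 and 6.29, with an exon-weighted log2 ratio of 0.08. The family had 10 genes on the list, of which 5 were tested and 0 passed a factor of 2, with 2 below 0 and a median of 0.06, against 3 below 0 and a median of -0.30 by the exon-weighted value. *Lgals2*, *Lgals4*, *Lgals7* and *Lgals12* had no listed transcript in any set.

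Of 14 galectin ligands and enzymes of N-glycan branching, all 14 were tested, and 1 passed a factor of 2 upward and 3 downward, with a median log2 ratio of -0.32. *Lamp1*, a heavily glycosylated lysosomal protein, had 122 with Control SMO and 38.6 with LFPRLR SMO. *Itgb1* and *Itga3*, integrin subunits, had 140 and 77.1, and 99.2 and 65.4. *Mgat5*, which makes the branch that galectin-3 prefers, had 22.5 and 10.9, and *Ptprc*, CD45, had 5.67 and 13.7. The remaining gene past the factor was *Havcr2*, TIM-3, named after its values were seen, with 1.88 with Control SMO and no listed transcript with LFPRLR SMO. By the exon-weighted value 0 of the 14 were higher and 1 was lower, and *Lamp1*, *Mgat5* and *Ptprc* were at -0.39, -0.20 and 0.10 on the log2 scale. *Itgb1* changed sign, from -0.86 to 0.19, while *Itga3* was at -0.23 against -0.60 by summed FPKM, and with the most abundant transcript alone the sign of both was reversed.

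Within whole tumor the 10 genes kept nearly the same order by FPKM. *Lgals1*, *S100a6* and *Anxa5* led in both libraries and *S100a8* was last. *S100a10* and *S100a11* changed places between the libraries, as did *S100a9* and *Lgals3*. By the exon-weighted value the former pair still changed places but the latter did not. By it *S100a9* was above *Lgals3* in both, at 17.5 against 14.6 with Control SMO and 23.8 against 9.24 with LFPRLR SMO. In the tumor Treg set *Lgals1* was again first, followed by *S100a11*, *Lgals3* and *S100a6*, while *Anxa5* was at place 8 and *S100a9* came last. With 1 library per set, whether neighbors in an order differ beyond the spread between mice cannot be given.

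Levels of whole tumor and the Treg set were made by different programs, so places among all genes of a set are put side by side only as a description. *Anxa5* had 99.0% of ranked genes below it with Control SMO and 84.0% in the Treg set, *S100a9* had 91.4% and 59.6%, and *S100a8* had 82.4% and 69.6%. By this share *Lgals3* was the exception among the 10, with 92.2% and 94.5%. The shares refer to 9570 ranked genes with Control SMO and 3078 in the Treg set, so not to the same genes. The log2 ratio of Treg set over Control SMO was also centred on its median over 2307 shared genes. So centred, it was 1.53 for *Lgals3* and 0.31 for *S100a8*, and below 0 for the other members. *Anxa1*, *Anxa2*, *S100a6*, *S100a10* and *S100a11* had between 97.2% and 99.7% below them with Control SMO and between 87.7% and 95.1% in the Treg set.

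**Figure D5:**
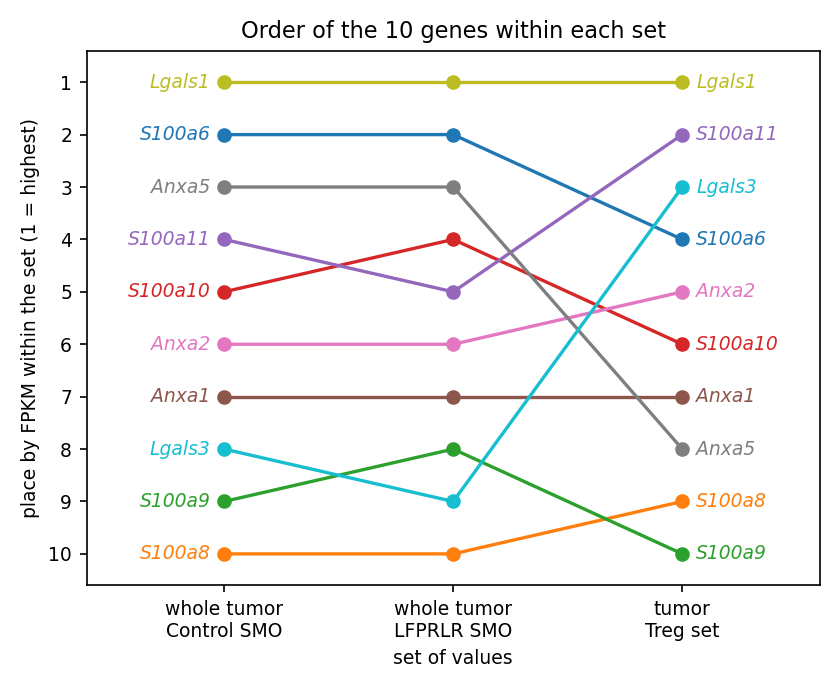
Place of each gene among the 10 by FPKM (vertical axis, 1 for the highest) in whole tumor with Control SMO, whole tumor with LFPRLR SMO and the tumor Treg set. *Lgals1* stays at 1 in every set, *Lgals3* is at 8, 9 and 3, and *Anxa5* is at 3, 3 and 8.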

How the data were processed

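Whole tumor and tumor Tregs with Control SMO or LFPRLR SMO gave 1 library each. The authors deposited lists of transcripts on mm10, made for whole tumor by Cufflinks, whose version is not given in the sources used here, with a coverage, an FPKM and 95% bounds per transcript. The deposited score of the whole tumor lists is relative to the most abundant transcript of an assembled gene and was not used. For tumor Tregs the authors deposited coverage, FPKM and TPM from StringTie 1.2.3. The submitters' processing notes also name HISAT2 2.0.4 and Cuffdiff 2.0.2. Depth in reads is unknown.

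Transcripts were assigned to GENCODE M21 genes (GRCm38) by a shared intron, else by 50% of exon bases, and in the Treg lists by their symbol where given. FPKM was summed over transcripts of at least 300 bases, and ratios were log2((LFPRLR SMO + 0.1)/(Control SMO + 0.1)), a scale that understates the change of low genes. Genes that reached an FPKM of 1 in either library were set against a factor of 2. The exon-weighted value multiplies the FPKM of every overlapping transcript by the part of the gene's longest annotated transcript it covers. Promoter windows are from RefSeq (GRCm38.p6), which held 8 of the 10 members.

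Named genes were all 10 members, every other gene of the families with an FPKM of at least 5 in any set, and in each partner list the 3 highest in whole tumor and any at a factor of 2 with an FPKM of at least 5, except 1 gene that is not reported here. The members and lists were chosen with earlier results of these data known. Assignment and counting were tested on simulated data. Alternatives covered pseudocounts, filters, factors, TPM, centring, transcript choice and assignment. Treatments were not compared in the Treg set because its values are equal under both labels. Scripts ran in Python 3.11.15 with numpy 2.4.6, and figures were drawn with matplotlib 3.10.9.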

Additional observations from a re-analysis of the deposited data

How the results depend on the processing

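Of the 10 members, 9 kept the sign of their log2 ratio under all 14 alternatives, but many of these could not test it. Pseudocounts and factors cannot change a sign. The filters, the shared intron and transcripts of any length left each member's ratio as it was. The sign was open to change with TPM, centring, the most abundant transcript, the exon-weighted value and the midpoint of the bounds. *S100a8* changed from -0.02 to 0.12 with TPM, 0.066 after centring on the median gene and 1.07 with the midpoint of the deposited bounds, an alternative chosen after seeing the data. That midpoint made 1 member higher by a factor of 2. The most abundant transcript alone made 1 member lower (*Lgals3*), the exon-weighted value 1 (*S100a11*), and a factor of 1.5, also chosen after seeing the data, made 3. The median of the members was -0.16 with TPM, -0.22 after centring and -0.21 exon-weighted. TPM moved the median of all genes from -0.08 to 0.07, and the exon-weighted value moved it to -0.16, so members are read against those shifts.

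Over all genes, 1924 were higher and 1731 lower by a factor of 2. An FPKM of at least 5 gave 858 and 796 of 6173 genes, or 13.9% and 12.9%. A factor of 3 gave 1246 and 1074. The exon-weighted value gave 500 and 709 of 8831, or 5.66% and 8.03%. Genes listed in both libraries gave 975 and 907 of 8660, or 11.3% and 10.5%. Assignment by a shared intron alone gave 1032 higher and 1672 lower of 9005, or 11.5% and 18.6%. A factor of 1.5 gave 2797 and 2743, and TPM gave 2283 and 1605 of 10579, or 21.6% and 15.2%. No paired analysis was possible because each group had 1 library, and for the same reason no replicate could be left out. The bounds of a library cover neither mice nor pools, and the lists cannot show that an unlisted gene was silent.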
